A study of Mus musculus with 4 samples.

Results

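The 35 genes described here encode lysosomal proteins, autophagy proteins and factors that control them. They were taken from a list of gene symbols, matched by symbol or RefSeq identifier, and make up 35 of the 17274 genes named on the exon list of the splicing tables. RNA was sequenced from N2A cells, a mouse neuroblastoma line, in 4 libraries. Cells of the first library received an shRNA against Ptbp1 (Ptbp1-kd), those of the next an shRNA against Ptbp2 (Ptbp2-kd), and those of the next both (double-kd), while the last received a control shRNA (control). The number and sequences of the shRNAs are not given in the sources used here. DNA was delivered with a lipid reagent for 5 hours in suspension, and the cells grew for 3 days before RNA was taken. All 4 libraries share the transfection, so none shows untransfected cells. Each group was 1 library, so nothing below could be held against replicates, and fewer cells expressing a gene cannot be told apart from less RNA per cell. The sample numbers of the Ptbp2-kd and double-kd libraries are consecutive. Those of control and the Ptbp1-kd library are too, far from the first pair. Whether these pairs were prepared apart was not tested. A difference shared only by the libraries with Ptbp2 depleted cannot be told apart from a difference between the pairs.

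Ptbp1 and Ptbp2 are polypyrimidine tract-binding proteins, which regulate splicing. Most cell types rely on Ptbp1, and Ptbp2 is best known from developing neurons. Lysosomes break down material with acid hydrolases, in a lumen acidified by the vacuolar ATPase (V-ATPase). Macroautophagy brings cytoplasm to them in autophagosomes, whose membrane carries lipid-linked LC3 and GABARAP proteins. The factors TFEB and TFE3 activate many lysosomal and autophagy genes through E-box-like promoter sites known as CLEAR elements. Neurons depend on this pathway, and loss of many of these genes causes lysosomal storage disease or neurodegeneration.

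Reads on the exon list summed to 209.53 M in Ptbp1-kd cells, 244.67 M in Ptbp2-kd cells, 260.28 M in double-kd cells and 260.72 M in control. Levels are given as CPM, a depth-scaled count of reads on all listed exons of a gene. Where genes are compared, they are given as rescaled FPKM, which corrects for transcript length. Reads on listed exons that overlap each other enter the sums above and the CPM more than once. Ptbp1 stood at 29.2%, 114.0% and 22.3% of its control level in the Ptbp1-kd, Ptbp2-kd and double-kd libraries. Ptbp2 stood at 195.0%, 26.9% and 42.2% of its control level in the same libraries, so its level in double-kd cells was above that in Ptbp2-kd cells. Of 8 listed neuroblastoma markers, 6 were at 1 CPM or more in every library, and Nefl and Nefm were below it. None of 5 listed macrophage markers reached 1 CPM, with sums of 0.153, 0.0695, 0.114 and 0.0671 CPM in Ptbp1-kd, Ptbp2-kd and double-kd cells and control. Of 5 fibroblast markers only Pdgfra reached 1 CPM, and their sums were 8.04, 2.42, 3.29 and 4.21 CPM in the same order. The part of such cells in the results was not tested.

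The exons that differed most among the 35 genes are printed first, since the results turn on them. They come from GENCODE transcripts on GRCm38, 5′ to 3′ on the gene's strand. Capitals mark the alternative exon, and lower case the neighbouring exons. The 6-nt form of the Psap exon keeps its last 6 bases, in capitals in the second line.
Psap 9-nt exon: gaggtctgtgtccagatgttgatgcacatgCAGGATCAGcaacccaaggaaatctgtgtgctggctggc
Psap 6-nt form: cagGATCAG
Atp6v1h 54-nt exon: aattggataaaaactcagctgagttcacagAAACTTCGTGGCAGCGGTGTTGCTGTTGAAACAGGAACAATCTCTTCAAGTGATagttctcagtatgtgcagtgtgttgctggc
Sh3glb1 39-nt exon: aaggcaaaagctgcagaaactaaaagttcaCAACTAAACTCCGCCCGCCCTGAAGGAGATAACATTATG
Sh3glb1 24-nt exon: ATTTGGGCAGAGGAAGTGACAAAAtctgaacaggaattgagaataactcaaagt
On GRCm38 the Psap exon is at chr10:60297537-60297545 (plus strand), the Atp6v1h exon at chr1:5101070-5101123 (plus), the Sh3glb1 39-nt exon at chr3:144701808-144701846 (minus) and the 24-nt exon at chr3:144699854-144699877 (minus). Each lies in coding sequence, and each length is a multiple of 3, so that including it keeps the reading frame.

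Psap encodes prosaposin, the precursor of the saposins, small activators of lysosomal sphingolipid breakdown. Its 9-nt exon, a known alternative microexon, lies between a 57-nt and a 132-nt exon. On mm9 the assembled transcripts placed it at chr10:59760285-59760293, in the intron after the exon at chr10:59758694-59758750. In Ptbp1-kd cells, 2089 reads joined the 57-nt exon to the 9-nt form, 537 to the 6-nt form and 780 directly to the 132-nt exon. Ptbp2-kd cells gave 741, 193 and 1764 reads for the same joins, double-kd cells 2248, 599 and 472, and control 1287, 298 and 1659. An insert of either length was therefore present in 77.1% of reads leaving the 57-nt exon in Ptbp1-kd cells (Wilson 95% interval 75.7 to 78.5), 34.6% in Ptbp2-kd cells (32.8 to 36.4), 85.8% in double-kd cells (84.5 to 86.9) and 48.9% in control (47.1 to 50.6). Inclusion was above control with Ptbp1 depleted, alone or together with Ptbp2, and below control with Ptbp2 alone depleted. The 4 intervals did not overlap; they cover counting error only.

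The choice between the 6-nt and 9-nt forms of the Psap insert differed little between libraries. The 6-nt form was 20.4% of insert reads in Ptbp1-kd cells, 20.7% in Ptbp2-kd cells, 21.0% in double-kd cells and 18.8% in control. A second small choice in Psap, 3 bases kept or left out at the start of a downstream exon (mm9 chr10:59762212-59762214), was also level. Those bases were kept in 90.0% of reads in Ptbp1-kd cells, 90.4% in Ptbp2-kd cells, 89.8% in double-kd cells and 90.1% in control. The assembled transcripts showed the insert by another route. Transcripts with the 9-nt exon took 48.1% of Psap FPKM in Ptbp1-kd cells, 26.6% in double-kd cells and 20.3% in control, while no transcript with it was assembled in Ptbp2-kd cells, where 741 junction reads carried it. In the order of these assembled shares double-kd cells were below Ptbp1-kd cells, whereas by junction reads they were above them.

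The deposited SpliceTrap inclusion ratio could not show the 9-nt exon. Its fixed list held 5 of the 9 bases as an exon of their own at mm9 chr10:59759053-59759057, with no skipping junction and the other 4 placed just before the 132-nt exon, and that exon's ratio was 99.9% in every library. Reads joined to that listed exon were taken above as the 9-nt form, although the assembled transcripts place it elsewhere in the same intron, and the insert shares rest on that reading. The ratio for the 6-nt form, set against reads with no insert, was 43.0%, 11.6%, 58.8% and 17.5% in Ptbp1-kd, Ptbp2-kd and double-kd cells and control. This is the same order of libraries as the insert share, but both use the same 6-nt and no-insert reads, so the ratio is not a separate measure. The ratio for the last 27 bases of the 57-nt exon was 62.5%, 95.4%, 38.2% and 91.5% in that order, but only reads joined directly to the 132-nt exon enter it. Reads using the inner splice site were 2.41%, 1.5%, 3.15% and 1.79% of all reads leaving the exon at either site.

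**Figure D1:**
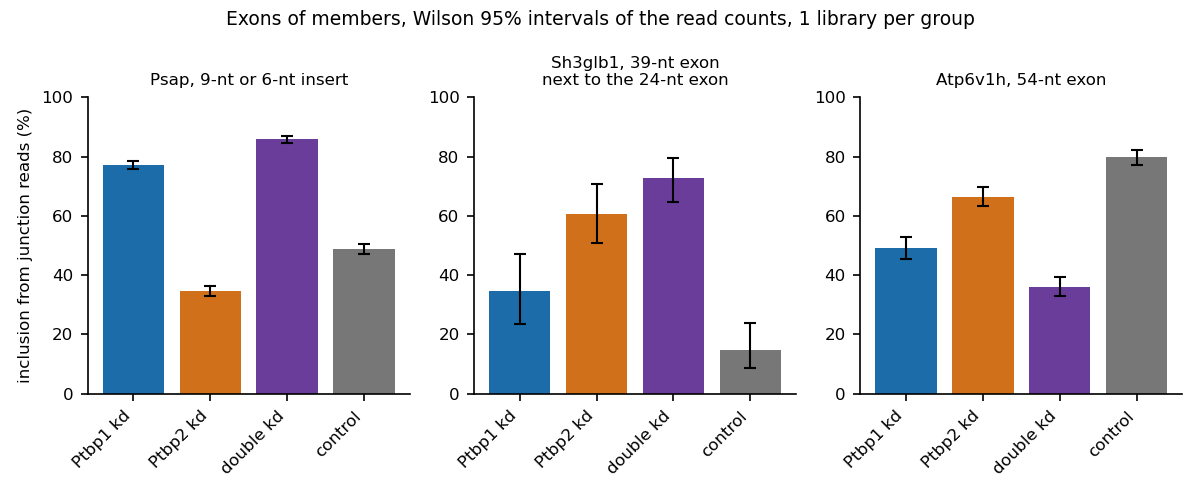
Inclusion (percent of junction reads, y axis) of the Psap insert, the Sh3glb1 39-nt exon next to the 24-nt exon, and the Atp6v1h 54-nt exon. Libraries are Ptbp1-kd, Ptbp2-kd and double-kd (knockdown) and control (x axis). Bars are 1 library each and error bars are Wilson 95% intervals of the counts. The Psap share is of reads leaving the 57-nt exon, while the other exons are scored on joins at both sides. The Psap insert is above control with Ptbp1 depleted and below it at 34.6% in Ptbp2-kd cells, while Atp6v1h is below its control value of 79.9% in every knockdown.

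Atp6v1h encodes subunit H of the V-ATPase, part of its cytosolic V1 sector and needed for activity of the assembled pump. Its 54-nt exon (mm9 chr1:5091151-5091204) had an inclusion of 49.3% in Ptbp1-kd cells (45.6 to 52.8), 66.5% in Ptbp2-kd cells (63.2 to 69.6), 36.0% in double-kd cells (33.0 to 39.2) and 79.9% in control (77.2 to 82.4). Skipping reads numbered 373, 279, 590 and 183 in the same order, so the exon was skipped more in each knockdown and most in double-kd cells. The differences from control were -30.6, -13.3 and -43.9 percentage points. The gene itself was at 130.2, 147.7 and 136.3 CPM in Ptbp1-kd, Ptbp2-kd and double-kd cells and 162.4 CPM in control, within 1.5-fold.

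Sh3glb1 encodes endophilin B1 (Bif-1), a membrane-curving protein that binds the Beclin 1 complex through UVRAG and acts in autophagosome formation. Longer forms with added exons in the coding sequence are known from brain. In the event bounded by the 24-nt exon (mm9 chr3:144362818-144362841), the 39-nt exon (chr3:144364772-144364810) was included in 34.5% in Ptbp1-kd cells (23.6 to 47.3), 60.5% in Ptbp2-kd cells (50.9 to 70.9), 72.8% in double-kd cells (64.8 to 79.6) and 14.6% in control (8.57 to 23.9). The highest inclusion was in double-kd cells and the lowest in control. The differences from control were 45.8 points in Ptbp2-kd cells and 58.2 points in double-kd cells. Ptbp1-kd cells differed by 19.8 points with intervals that overlap, on 38 skipping reads against 70 in control, and did not meet the rule. Both short exons lie between a 93-nt exon and a 90-nt exon. Of reads that left the 93-nt exon either for the 39-nt exon or directly for the 90-nt exon, those to the 39-nt exon made up 12.4% in Ptbp1-kd cells (9.22 to 16.5), 13.9% in Ptbp2-kd cells (11.6 to 16.6), 25.0% in double-kd cells (21.8 to 28.4) and 4.78% in control (3.49 to 6.52). On this measure all 3 knockdown intervals lay above that of control.

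In assembled transcripts the Sh3glb1 39-nt exon was again most frequent with both proteins depleted and least frequent in control. It was in 22.9% of Sh3glb1 FPKM in Ptbp1-kd cells, 15.5% in Ptbp2-kd cells, 27.4% in double-kd cells and 5.4% in control. In these shares Ptbp1-kd cells were above Ptbp2-kd cells, whereas by junction inclusion next to the 24-nt exon they were below them. A longer 87-nt form of this exon (mm9 chr3:144364724-144364810) took 4.54% in Ptbp2-kd cells and 9.28% in double-kd cells, and was in no transcript assembled from Ptbp1-kd cells or control. The 24-nt exon was in 51.3%, 44.2%, 46.5% and 26.6% of FPKM in Ptbp1-kd, Ptbp2-kd and double-kd cells and control, so its share was above control in each knockdown.

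No cassette exon of these genes other than those of Atp6v1h and Sh3glb1 met the rule given below. Across the 35 genes, 439 cassette events had enough junction reads in each comparison. An event met the rule when inclusion differed from control by at least 10 points, with at least 20 junction reads in each library and Wilson intervals that did not overlap. In Ptbp1-kd cells 1 member exon met it, that of Atp6v1h, and 0.569% of all cassette events did. In Ptbp2-kd cells 2 met it, those of Atp6v1h and Sh3glb1, against 0.419% of all events. In double-kd cells the exons of Atp6v1h and Sh3glb1 again met it, against 0.972% of all events. Counts of 1 or 2 events of 439 cannot be set apart from these shares. The listed Psap exon has no skipping junction, so this rule could not score the Psap insert, and the counts leave it out. Member events within 2 points of control were 96.1% in Ptbp1-kd cells, 96.1% in Ptbp2-kd cells and 95.9% in double-kd cells. For all events those shares were 91.9%, 91.9% and 91.6%. Read depth was not matched between members and all events, so nothing is read from the difference between these shares.

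Alternative splice sites were judged by the SpliceTrap ratio alone. Of 12 alternative 3′ splice sites in the members, 2 differed from control by at least 10 points in Ptbp1-kd cells, against 9.92% of all such events. In Ptbp2-kd cells 1 did, against 9.38%, and in double-kd cells 3 did, against 11.8%. Besides the 6-nt form of Psap these were a 4-nt choice in Cln3 and an 84-nt choice in Ctsa. Cln3 encodes a lysosomal membrane protein lost in juvenile Batten disease, and its longer form had a ratio of 3.3%, 19.9%, 17.2% and 41.9% in Ptbp1-kd, Ptbp2-kd and double-kd cells and control. Only 25, 25, 25 and 26 junction reads lay behind those values. Ctsa, encoding the protective protein cathepsin A, had ratios of 50.6%, 62.0%, 81.8% and 58.6% on 43 to 78 junction reads. Of 10 alternative 5′ splice sites, 1 differed in Ptbp1-kd cells, 0 in Ptbp2-kd cells and 2 in double-kd cells, against 9.48%, 8.54% and 11.0% of all such events. All of these were in Psap. They were the 27-nt choice described above and, in double-kd cells, also a 4-nt choice with a ratio of 16.0% against 3.1% in control. Reads with no insert enter each of these ratios and that of the 6-nt form. The Psap calls therefore cannot be told apart from the insert difference described above.

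Lamp2 encodes a major lysosomal membrane glycoprotein in 3 forms that differ in their last exon, which holds the membrane span and the short cytosolic tail. LAMP-2A is the receptor of chaperone-mediated autophagy, LAMP-2B is the form best known from heart and muscle, and LAMP-2C has been linked to the uptake of nucleic acids into lysosomes. The coding part of each last exon is printed below on GRCm38, minus strand, with its last 30 bases, which encode the end of the tail, in capitals. The near, middle and far exons, by distance from the shared exon, hold the tails of LAMP-2B, LAMP-2A and LAMP-2C.
Lamp2 near last exon: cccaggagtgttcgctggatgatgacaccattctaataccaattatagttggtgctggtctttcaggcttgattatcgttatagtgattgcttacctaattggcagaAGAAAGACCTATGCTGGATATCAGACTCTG
Lamp2 middle last exon: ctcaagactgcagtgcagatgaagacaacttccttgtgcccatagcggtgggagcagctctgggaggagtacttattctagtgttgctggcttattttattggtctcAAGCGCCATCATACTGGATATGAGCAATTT
Lamp2 far last exon: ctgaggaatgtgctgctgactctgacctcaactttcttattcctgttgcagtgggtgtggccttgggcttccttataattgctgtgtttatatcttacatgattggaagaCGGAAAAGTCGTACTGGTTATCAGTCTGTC
Their GRCm38 positions are chrX:38421715-38421851, chrX:38405435-38405571 and chrX:38402142-38402281.

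Reads joining the shared exon (mm9 chrX:35777444-35777608) to the far last exon numbered 58 of 377 in Ptbp1-kd cells, 19 of 387 in Ptbp2-kd cells, 90 of 466 in double-kd cells and 46 of 548 in control. The LAMP-2C exon therefore took 15.4% in Ptbp1-kd cells (12.1 to 19.4), 4.91% in Ptbp2-kd cells (3.17 to 7.54), 19.3% in double-kd cells (16.0 to 23.1) and 8.39% in control (6.35 to 11.0). Its share was above control with Ptbp1 depleted, with intervals that did not overlap, while the intervals of Ptbp2-kd cells and control overlapped. The LAMP-2A exon took 40.6% in Ptbp1-kd cells (35.7 to 45.6), 49.4% in Ptbp2-kd cells (44.4 to 54.3), 35.0% in double-kd cells (30.8 to 39.4) and 46.4% in control (42.2 to 50.5). Only double-kd cells had an interval below that of control. The LAMP-2B exon was level at 44.0%, 45.7%, 45.7% and 45.3% in Ptbp1-kd, Ptbp2-kd and double-kd cells and control. Among the RefSeq forms that the transcript files hold, the LAMP-2A form was 44.0%, 48.1%, 33.9% and 47.3% of the summed FPKM of the LAMP-2A and LAMP-2B forms, again with the lowest share in double-kd cells. By junction reads to those exons alone, the LAMP-2A share was 48.0%, 51.9%, 43.4% and 50.6%. The intervals of double-kd cells (38.4 to 48.4) and control (46.2 to 54.9) overlapped on that measure. Lamp2 as a whole was at 57.5, 54.51 and 62.58 CPM in Ptbp1-kd, Ptbp2-kd and double-kd cells and 69.76 CPM in control.

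**Figure D2:**
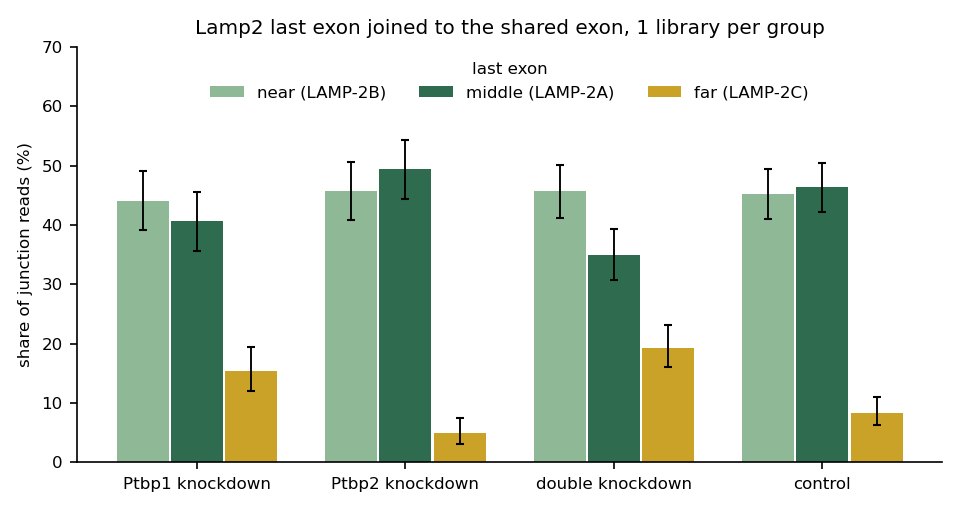
Share (percent, y axis) of junction reads from the shared Lamp2 exon that enter the near, middle or far last exon, by library (x axis), with Wilson 95% intervals of the counts. The far exon (LAMP-2C) takes 15.4% and 19.3% where Ptbp1 is depleted, against 8.39% in control, while the near exon (LAMP-2B) stays between 44.0% and 45.7%.

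Few of the 35 genes differed in level by 1.5-fold. All 35 were measured in all libraries, from 3.975 FPKM (Cln3) to 272.9 FPKM (Lamp1) in control, with Psap at 246.9, Sqstm1 at 154.2 and Ctsd at 132.9 FPKM also among the high ones. Genes count as higher or lower where scaled exon reads, as log2(CPM + 0.1), differed from control by at least 1.5-fold, with 1 CPM or more in 1 of both libraries. In Ptbp1-kd cells 1 member was higher and 1 lower, against 9.33% and 5.24% of all genes measured. In Ptbp2-kd cells 1 was higher and 2 lower, against 3.95% and 8.51%. In double-kd cells 1 was higher and 2 lower, against 6.36% and 7.06%. Counts of 1 or 2 genes of 35 cannot be set apart from these shares.

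Most members lay slightly below control where Ptbp2 was depleted, on the scale used here. Both libraries with Ptbp2 depleted are also a pair by sample number, so depletion and pair cannot be told apart here. The median log2 difference of the members was 0.03 in Ptbp1-kd cells, -0.14 in Ptbp2-kd cells and -0.15 in double-kd cells. The median over all genes measured was -0.06, -0.0027 and -0.03. Members below control numbered 15, 26 and 27 of 35. When scaled by total exon reads instead, 8, 24 and 19 were below control, so the count in double-kd cells moved with the scaling. By rescaled FPKM 9, 24 and 19 were below control. Differences smaller than 0.3 on the log2 scale were found for 27, 23 and 22 members.

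**Figure D3:**
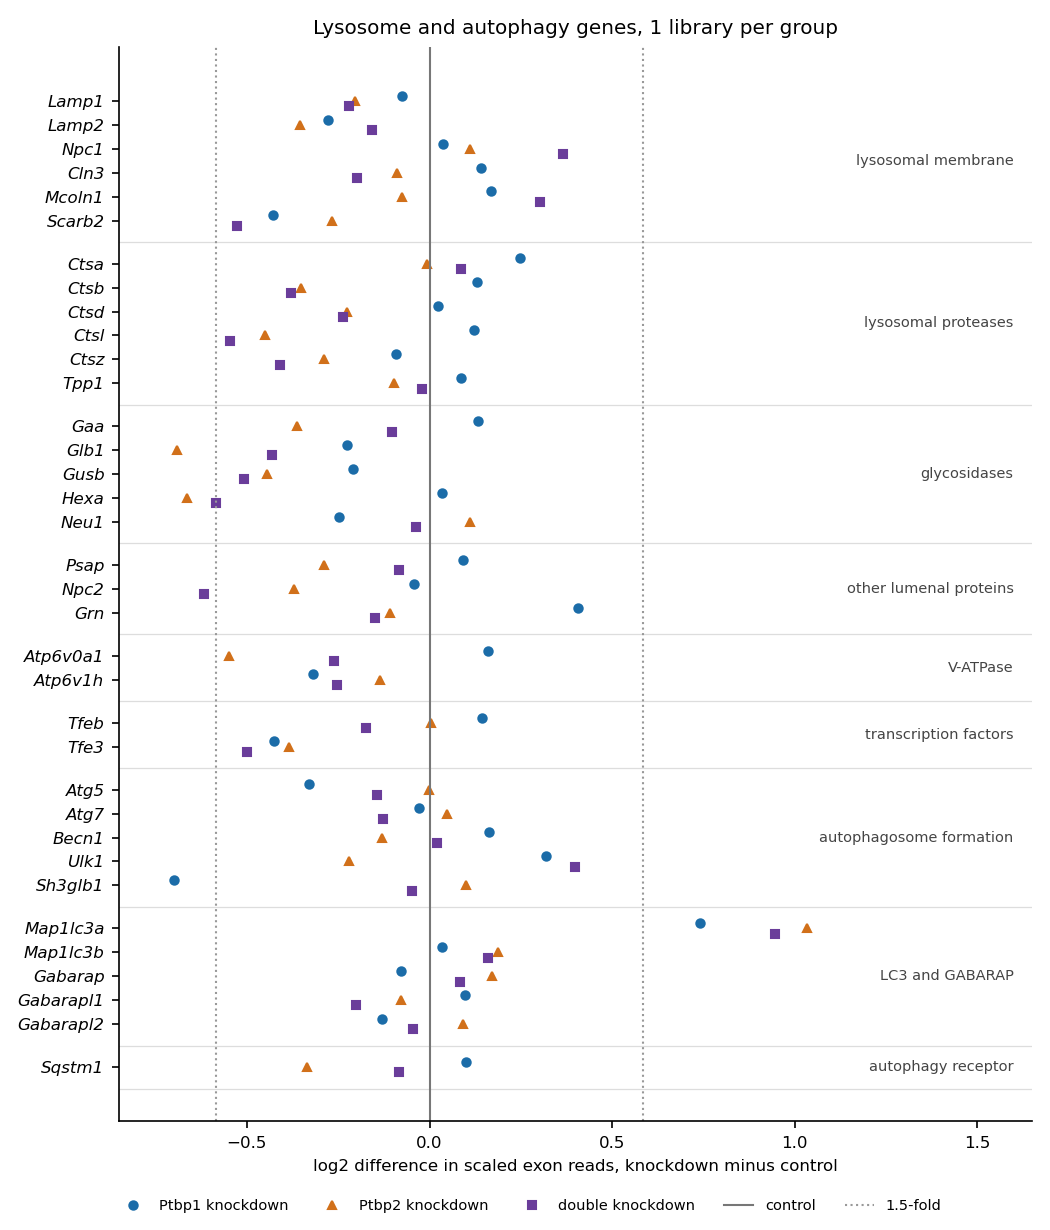
Log2 difference in scaled exon reads from control (x axis) for the 35 genes (rows, grouped by role) in Ptbp1-kd, Ptbp2-kd and double-kd cells, 1 library each; the solid line is control and dotted lines mark 1.5-fold. Map1lc3a stands to the right of the dotted line in all 3 knockdowns, and most other genes lie between the lines.

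Map1lc3a was the only member past 1.5-fold in every knockdown. It encodes LC3A, one of the ubiquitin-like proteins that are coupled to lipid on autophagosome membranes. Its level was 23.28 CPM in Ptbp1-kd cells, 28.55 CPM in Ptbp2-kd cells, 26.83 CPM in double-kd cells and 13.88 CPM in control. Control was thus the lowest of the 4 libraries, and the log2 differences were 0.74, 1.03 and 0.95 (1.67-fold, 2.05-fold and 1.93-fold). Rescaled FPKM gave 23.6, 30.49, 28.71 and 13.45 in the same order. The other LC3 and GABARAP genes stayed near control, between -0.20 (Gabarapl1, double-kd cells) and 0.19 (Map1lc3b, Ptbp2-kd cells) on the log2 scale of exon reads. For Gabarapl2 the measures differed: exon reads gave -0.13 in Ptbp1-kd cells and rescaled FPKM 0.75.

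Genes of autophagosome formation were mostly level. Sh3glb1 had 65.28 CPM in Ptbp1-kd cells, 113.6 CPM in Ptbp2-kd cells, 102.6 CPM in double-kd cells and 106.0 CPM in control. Only Ptbp1-kd cells stood apart, at a log2 difference of -0.70 (1.62-fold lower), and the level was not low in double-kd cells, in which Ptbp1 was also depleted. Its FPKM were 23.7, 38.17, 28.68 and 27.04, a log2 difference of -0.18 in Ptbp1-kd cells, within 1.5-fold. Ulk1, the kinase that starts autophagosome formation, was at 56.0, 38.49 and 59.26 CPM in Ptbp1-kd, Ptbp2-kd and double-kd cells and 44.89 CPM in control, above control with Ptbp1 depleted. Becn1 (Beclin 1, of the lipid kinase complex), Atg5 and Atg7 (of the LC3 coupling system) differed by at most 0.33 on the log2 scale of exon reads. Sqstm1, encoding the cargo receptor p62, was at 388.9, 287.7, 342.1 and 362.8 CPM, lowest in Ptbp2-kd cells.

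The glycosidases, which remove sugars from glycoproteins and glycolipids, included the members lowest against control in Ptbp2-kd cells by exon reads. Glb1 encodes the lysosomal beta-galactosidase that acts on GM1 ganglioside. It was at 79.99 CPM in Ptbp1-kd cells, 57.93 CPM in Ptbp2-kd cells, 69.3 CPM in double-kd cells and 93.57 CPM in control, a log2 difference of -0.69 in Ptbp2-kd cells. Hexa encodes the alpha subunit of beta-hexosaminidase, lost in Tay-Sachs disease. It was at 120.2 CPM in Ptbp1-kd cells, 73.99 CPM in Ptbp2-kd cells, 78.16 CPM in double-kd cells and 117.3 CPM in control. Both libraries with Ptbp2 depleted were low, at log2 differences of -0.66 and -0.59, the second only just past the threshold at 1.501-fold. FPKM of Hexa gave -0.66 in Ptbp2-kd cells and -0.49 in double-kd cells. Gusb (beta-glucuronidase) and Gaa (acid alpha-glucosidase) were at -0.45 and -0.36 in Ptbp2-kd cells by exon reads but at -0.11 and -0.14 by FPKM, and Neu1 (sialidase) was at 0.11 by exon reads. For Neu1 the measures differed in sign, with rescaled FPKM at -0.69. The median of the 5 glycosidases was -0.21 in Ptbp1-kd cells, where scaling by total exon reads turned it to 0.0071, -0.45 in Ptbp2-kd cells and -0.43 in double-kd cells.

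The lysosomal proteases differed by less. All 6 were below control in Ptbp2-kd cells by exon reads, between -0.45 (Ctsl, cathepsin L) and -0.0078 (Ctsa), but 5 by total exon reads and 3 by FPKM. In Ptbp1-kd cells 5 of 6 were above control by exon reads and by FPKM. The largest difference in double-kd cells was that of Ctsl at -0.55, with 39.75 CPM against 58.07 CPM in control. Ctsb, encoding cathepsin B, was the clearest case in which both measures differ. It was at 333.3, 238.5, 234.1 and 304.6 CPM in Ptbp1-kd, Ptbp2-kd and double-kd cells and control, but at 156.1, 108.3, 94.46 and 61.31 FPKM. Control was thus the lowest library by FPKM and the second highest by exon reads, and no call is made for Ctsb.

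Npc2, a small lumenal protein that binds cholesterol and hands it to Npc1, was lower in double-kd cells. Its level was 91.79 CPM in Ptbp1-kd cells, 73.13 CPM in Ptbp2-kd cells, 61.54 CPM in double-kd cells and 94.56 CPM in control. The double-kd difference was -0.62 (1.54-fold lower), and FPKM gave -0.58, just within 1.5-fold. In Ptbp2-kd cells exon reads gave -0.37 and FPKM -1.10, so the measures differ in size there. Its partner Npc1, a membrane protein that exports cholesterol, was at 70.45, 74.1, 88.39 and 68.64 CPM, highest in double-kd cells at 0.36. Psap was at 901.5, 692.4, 799.3 and 846.7 CPM, lowest in Ptbp2-kd cells at -0.29. Grn encodes progranulin, a secreted and lysosomal protein whose loss causes frontotemporal dementia, and was at 117.8, 82.43, 80.04 and 88.79 CPM, highest in Ptbp1-kd cells at 0.41.

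**Figure D4:**
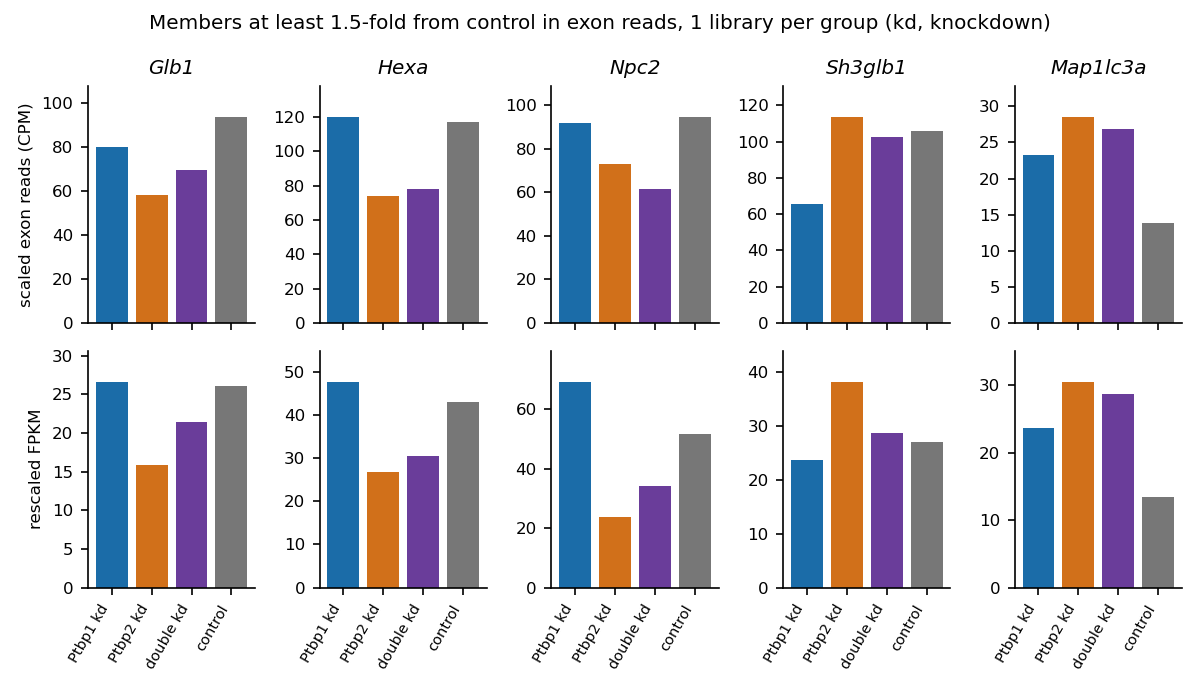
Scaled exon reads (CPM, top) and rescaled FPKM (bottom) of the 5 members past 1.5-fold in at least 1 comparison, in the Ptbp1-kd, Ptbp2-kd and double-kd (knockdown) libraries and control; bars are 1 library each and start at 0. Map1lc3a is lowest in control by both measures, at 13.88 CPM and 13.45 FPKM, and Sh3glb1 is lowest in Ptbp1-kd cells.

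Of the remaining membrane proteins, Scarb2, encoding LIMP-2, the receptor that brings glucocerebrosidase to lysosomes, was below control throughout. It was at 146.5, 163.9 and 136.7 CPM in Ptbp1-kd, Ptbp2-kd and double-kd cells and 197.1 CPM in control, with -0.53 in double-kd cells as its largest difference. Lamp1, the close relative of Lamp2, was at 659.7, 603.5, 596.4 and 694.8 CPM, and Mcoln1, the lysosomal calcium channel TRPML1, at 52.23, 44.07, 57.28 and 46.44 CPM. Atp6v0a1, a membrane subunit of the V-ATPase abundant in neurons, was at 187.7, 114.8, 140.3 and 168.1 CPM, a difference of -0.55 in Ptbp2-kd cells. Tfeb was at 15.17, 13.77, 12.17 and 13.73 CPM and Tfe3 at 16.28, 16.74, 15.44 and 21.89 CPM. Tfe3 was thus highest in control, with differences of -0.43, -0.38 and -0.50, all within 1.5-fold.

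Promoter letters were looked up because lysosomal genes are known for E-box-like sites. RefSeq promoter windows around gene starts on GRCm38.p6 matched 30 of the 35 genes; Ctsb, Npc1, Map1lc3a, Becn1 and Atp6v1h had none. The palindrome CACGTG was in a window of 10 of the 30 (33.3%), against 8.09% of 27025 genes. The longer palindrome TCACGTGA, which contains it, was in 4 of the 30 (13.3%), against 1.12% of all genes. Windows around the longer palindrome, in capitals, are printed below for these 4 genes, which hold it; most members have neither palindrome in these windows.
Ctsa: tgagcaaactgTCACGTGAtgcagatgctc
Cln3: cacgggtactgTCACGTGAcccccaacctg
Ctsd: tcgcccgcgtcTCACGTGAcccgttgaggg
Mcoln1: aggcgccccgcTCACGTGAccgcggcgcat
They lie at chr2:164833749-164833778 (plus), chr7:126583340-126583369 (minus), chr7:142387908-142387937 (minus) and chr8:3500462-3500491 (plus). The 10 genes with CACGTG had median log2 differences of 0.07, -0.15 and -0.17 in Ptbp1-kd, Ptbp2-kd and double-kd cells, and the 20 without it -0.0044, -0.24 and -0.15. A match is a run of letters and not a measured binding site.

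Another 137 genes of the same pathways, in 8 lists, were measured beside the members. In Ptbp1-kd cells 4 of 131 were higher and 6 lower (3.05% and 4.58%). In Ptbp2-kd cells 2 of 129 were higher and 15 lower (1.55% and 11.6%), and in double-kd cells 3 of 130 were higher and 9 lower (2.31% and 6.92%). The shares of all genes given above for the same rule stood at 8.51% lower in Ptbp2-kd cells and 7.06% lower in double-kd cells. The list of other lysosomal hydrolases and their activators held 8 of the 15 lower genes of Ptbp2-kd cells, of 27 measured, with a median of -0.35. These counts rest on exon reads alone. They include Idua, at 1.303 CPM in Ptbp2-kd cells and 2.552 CPM in control, for which FPKM did not give the same sign. In Ptbp1-kd cells none of its 28 measured genes was past 1.5-fold, and its median was 0.19.

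Among these hydrolases, Arsb (arylsulfatase B) was at 47.32 CPM in Ptbp1-kd cells, 16.47 CPM in Ptbp2-kd cells, 20.46 CPM in double-kd cells and 40.93 CPM in control. Ids (iduronate 2-sulfatase) was at 13.3, 4.223, 6.746 and 10.1 CPM, and Gm2a, the activator that presents GM2 ganglioside to the hexosaminidase of Hexa, at 65.54, 33.37, 34.85 and 54.02 CPM. All 3 were lower in Ptbp2-kd cells, and Arsb and Gm2a in double-kd cells too. Fuca1 (alpha-fucosidase) was lower in both as well, at 36.66 CPM in Ptbp2-kd cells, 37.68 CPM in double-kd cells and 58.41 CPM in control. Of the membrane proteins, Abca2, a lipid transporter, was at 92.45, 24.86, 46.32 and 58.75 CPM, higher in Ptbp1-kd cells (1.57-fold) and lower in Ptbp2-kd cells (2.36-fold). Cd63, a tetraspanin, was at 69.82, 34.93, 32.65 and 65.16 CPM. Mfsd8 was at 4.603, 5.831, 4.114 and 8.214 CPM, lower in Ptbp1-kd and double-kd cells.

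Of all pathway genes measured, the lowest against control in Ptbp1-kd cells was a V-ATPase gene. Atp6v0e, a small membrane subunit, was at 18.63, 64.78, 31.72 and 51.68 CPM in Ptbp1-kd, Ptbp2-kd and double-kd cells and control, 2.76-fold lower in Ptbp1-kd cells. Atp6ap1 and Atp6v0e2 were lower in Ptbp2-kd cells, at 92.28 CPM against 153.6 CPM and 66.24 CPM against 100.8 CPM in control. Atp6v1g2, a subunit form made in neurons, was at 3.768 CPM in double-kd cells and only 0.8633 CPM in control. It was at 2.947 CPM in Ptbp1-kd cells, where FPKM did not give a difference of the same sign. Gga2, a sorting adaptor for mannose-6-phosphate receptors, was lower in Ptbp1-kd cells, at 66.11 CPM against 109.3 CPM in control.

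Of the other autophagy genes, Wipi1, which binds phosphoinositide on forming autophagosomes, was at 70.32, 65.15, 50.61 and 130.3 CPM, and so lower in every knockdown. Bnip3, a receptor for mitochondria, was lower in every knockdown too, at 32.64, 35.21, 42.57 and 67.05 CPM. Calcoco1 was higher in Ptbp1-kd cells, at 28.77 CPM against 18.43 CPM in control, and Wdfy3 lower in Ptbp2-kd cells, at 63.64 CPM against 114.5 CPM. Atg14, of the Beclin 1 complex, was higher in Ptbp2-kd cells, at 23.72 CPM against 15.75 CPM. Atg10 was lower in double-kd cells, at 7.654 CPM against 14.32 CPM. Rragd, a Rag GTPase of nutrient signalling at lysosomes, was at 140.6, 196.7, 208.3 and 115.8 CPM, higher in both libraries with Ptbp2 depleted. Rragc was lower in Ptbp1-kd cells, at 42.75 CPM against 65.79 CPM. Mitf, a relative of Tfeb, was at 6.227, 5.27, 7.137 and 4.015 CPM, higher in Ptbp1-kd and double-kd cells. The 33 differences of pathway genes named here by rule have the same sign by FPKM only because the rule required it. Of these, 8 were within 1.5-fold by FPKM. They were those of Gm2a in double-kd cells, Atp6v0e2 and Atg14 in Ptbp2-kd cells, Mfsd8, Calcoco1 and Rragc in Ptbp1-kd cells, and Mitf in Ptbp1-kd and double-kd cells. None of the 12 genes of autophagosome and lysosome fusion was past 1.5-fold.

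**Figure D5:**
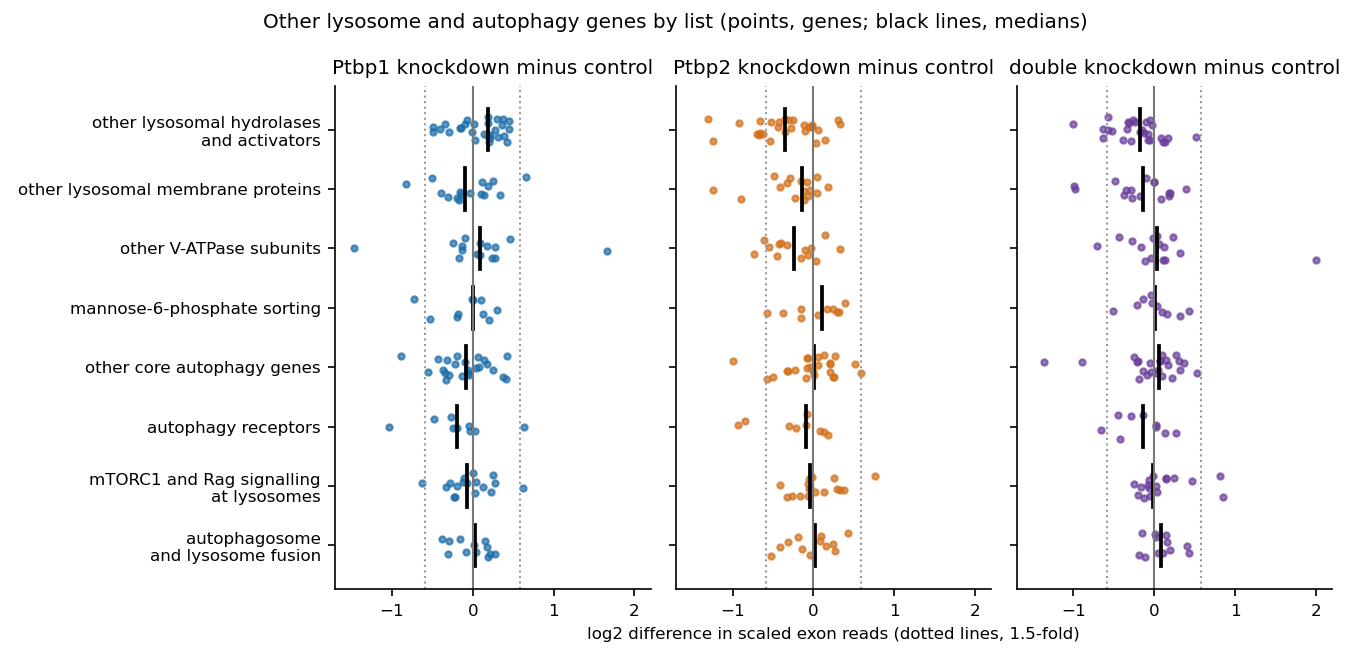
Log2 difference in scaled exon reads from control (x axis) for the other lysosome and autophagy genes, by list (rows), with 1 panel each for Ptbp1-kd, Ptbp2-kd and double-kd cells; points are genes, black lines are list medians and dotted lines mark 1.5-fold. The median of the hydrolase list lies left of the control line in Ptbp2-kd cells, at -0.35, and the fusion list stays between the dotted lines in all panels.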

How the data were processed

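RNA was sequenced strand-specifically as 100-base paired reads, per the labels' protocols. Per the submitters' processing notes, CASAVA, TopHat and Cufflinks were used on mm9; the sources used here do not give versions. The deposited FPKM of genes and transcripts were divided by the library's own sum of FPKM times length. A score in those deposited files was not used. Per the file headers, the SpliceTrap tables give an inclusion ratio, which is a fraction, junction read counts, and exon coverage, a signal from which exon reads were recovered by exon size and summed per gene. Genes were named on mm9 through RefSeq transcripts in the files; 98.2% of 34850 transcripts and 94.9% of cassette trios were named.

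Median-of-ratios scaling preceded the comparison on the log2(CPM + 0.1) scale. Junction inclusion sets the average of the joins into and out of an exon against that average together with the skipping reads. In control, among exons of 28 to 60 nt that were almost always included, the second listed junction held a median of 0.392 times the reads of the first, and no source used here says why; the first junction alone was therefore an alternative. For the Sh3glb1 39-nt exon the second junction held more reads than the first in every library. That second junction, to the preceding exon, held 22, 69, 122 and 14 reads in Ptbp1-kd, Ptbp2-kd and double-kd cells and control. The second Sh3glb1 measure, from reads leaving that preceding exon, counted 39, 106, 165 and 37 for the same join. Why these counts differ was not tested. Wilson 95% intervals cover counting error only. With 1 library a group no test was run. The rule for level calls was checked on simulated counts with counting noise only and 2-fold changes planted in well-covered genes. That check held no variation between libraries and no planted change near 1.5-fold, so it cannot speak for calls near the threshold. The members, lists and the Psap, Lamp2 and Sh3glb1 read shares were chosen with earlier results of these data known. Roles were assigned after values were seen. Members past 1.5-fold, Psap, Lamp2 and Sh3glb1 are given in every library and others as examples of their role; the pathway genes named are up to 3 per list and direction, past 1.5-fold with the same sign in FPKM. Exon sequences are from GENCODE vM21 (GRCm38), matched by exon and intron lengths; no coordinates were converted. Python 3.11.15, pandas 2.3.3 and scipy 1.17.1 were used.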

Additional observations from a re-analysis of the deposited data

How the results depend on the processing

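No paired analysis was possible because each group holds 1 library, and no library could be left out. Scaling by total exon reads moved the median of all genes by more than 0.1 on the log2 scale in 2 comparisons, to 0.16 in Ptbp1-kd cells and 0.12 in double-kd cells. The members then gave 2 higher, 0 lower and a median of 0.25 in Ptbp1-kd cells, and 0 lower with a median of -0.0047 in double-kd cells. Rescaled FPKM gave 3 higher, 0 lower and a median of 0.19 in Ptbp1-kd cells, 2 higher and 4 lower in Ptbp2-kd cells, and 2 higher, 0 lower and a median of -0.0209 in double-kd cells. At 2-fold, which is stricter by construction, Ptbp1-kd cells had 0 higher and 0 lower, Ptbp2-kd cells 0 lower, and double-kd cells 0 higher and 0 lower. Lower members of double-kd cells numbered 1 with a pseudocount of 1 CPM. Alternatives chosen after seeing the data gave 1 there on non-overlapping exons and 0 on junction reads. The SpliceTrap ratio gave 4, 5 and 6 changed member exons in Ptbp1-kd, Ptbp2-kd and double-kd cells, a minimum of 20 points gave 1 in Ptbp2-kd cells, and the first listed junction alone, also added later, gave 2 in Ptbp1-kd cells. Apart from the stricter limits, the cause was not tested. Of the 8 level and 5 exon differences past the threshold, none changed sign under the alternatives run; 3 of the 8 level differences left 1.5-fold by total scaling, 3 by FPKM, 2 on junction reads and 1 on non-overlapping exons, and all 5 exon differences stayed past 10 points by both other measures. Smaller differences did change sign between measures. Exon reads and FPKM differed in sign for 6, 8 and 8 of the 35 members in Ptbp1-kd, Ptbp2-kd and double-kd cells, Neu1 and Gabarapl2 among them. The glycosidase median of Ptbp1-kd cells changed sign with the scaling, as given above. About 25 junction reads limit Cln3.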

Other observations

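The events that met the 10-point limit by the SpliceTrap ratio alone were listed for Atg7, Tfe3, Gusb, Tpp1 and Cln3. The 72-nt exon of Tpp1, the gene of tripeptidyl peptidase 1, had a ratio of 88.5% in double-kd cells and 99.3% in control, with 24 skipping reads against 2. The 97-nt exon of Cln3 had 77.6% in double-kd cells and 92.3% in control, with 13 skipping reads against 6. The 186-nt exon of Gusb had 78.2% in Ptbp2-kd cells and 66.8% in control, with 18 skipping reads against 11. The 53-nt exon of Atg7 had 99.9%, 99.9% and 32.4% in Ptbp1-kd, Ptbp2-kd and double-kd cells and 57.5% in control, on at most 4 junction reads a library. The 282-nt exon of Tfe3 rested on 0 or 1 skipping reads in every library. By the first listed junction alone, the 127-nt exon of Ctsa was included in 26.7% in Ptbp1-kd cells and 44.5% in control, with 110 skipping reads against 61.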
